A study of Mus musculus with 6 samples.

Results

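Tight junctions are the belts that seal the space between neighbouring epithelial cells. The 9 genes described here encode parts of that belt: the claudins Cldn1 and Cldn4, the MARVEL-domain proteins occludin (Ocln), tricellulin (Marveld2) and Marveld3, the adhesion molecule JAM-A (F11r), the scaffold ZO-1 (Tjp1), and the cytoplasmic linkers cingulin (Cgn) and paracingulin (Cgnl1). They were taken by gene symbol. All 9 were found among 23420 genes in the count table, and all 9 were among the 12672 genes with enough reads to test.

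Counts came from mRNA sequencing of cultured mouse epidermal keratinocytes, in 3 libraries labelled WT (K14CreERT2-;Gata6 fl/fl) and 3 labelled iKO, for induced knockout (K14CreERT2+;Gata6 fl/fl). Every sample therefore had loxP-flanked Gata6, a GATA-family transcription factor gene, and only the iKO libraries the tamoxifen-activated Cre recombinase, driven by the promoter of keratin 14, a basal keratinocyte gene. Both groups were grown in low calcium E medium, in which keratinocytes are known to form few mature cell-cell junctions, and at passage 8 to 10 received 1 µM 4-hydroxytamoxifen for 6 hours. Libraries are called WT 2, WT 3, WT 4, iKO 3, iKO 4 and iKO 33 after their columns; 33 matches no sample title, so that library is known by its group alone. Whether libraries of a group were grown apart is not stated, and the p-values then reflect library-to-library spread that may be technical.

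In the epidermis, claudins set how tight the barrier of the granular layer is, and loss of Cldn1 is known to make the skin leak water. Occludin and Marveld3 sit along the contact between a pair of cells, while tricellulin gathers where 3 cells meet. ZO-1 binds claudins and occludin on the inside of the membrane and ties them to actin, and cingulin and paracingulin link ZO-1 to actomyosin and microtubules.

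Libraries held between 21943467 and 83337263 reads assigned to genes. Reads that did not align uniquely made up 29.5% to 30.5% of counts in the libraries labelled WT and 21.7% to 26.5% in those labelled iKO. The targeted gene went against its label: Gata6 stood at 2.86, 0.519 and 5.37 CPM (reads scaled to library size with TMM factors) in WT 2, WT 3 and WT 4, and at 14.2, 21.02 and 17.0 CPM in iKO 3, iKO 4 and iKO 33. Counts per gene do not show whether the floxed exons were lost, so groups are named by their labels and no direction below is read as an effect of losing Gata6. Xist and the 4 Y-linked genes checked (Ddx3y, Eif2s3y, Kdm5d, Uty) also separated the groups completely. Xist stood at 605 to 889 CPM in WT libraries and reached at most 2.62 CPM in iKO libraries. The Y-linked genes reached at most 0.2305 CPM in WT and stood at 12.95 to 53.9 CPM in iKO libraries. The WT libraries thus read as female and the iKO libraries as male, so sex of the cells and genotype label cannot be told apart. Keratinocyte identity was checked by the keratin genes Krt5 and Krt14, the 5 fibroblast collagen and proteoglycan genes Col1a1, Col1a2, Col3a1, Dcn and Lum, and the leukocyte gene Ptprc. The lowest library had 14719 CPM of Krt5 and 12916 CPM of Krt14, while Col1a1, the most abundant of the other 6 genes, reached no more than 0.289 CPM. Outside these 6, the fibroblast marker Pdgfra reached 2.89 CPM (iKO 4) and the leukocyte marker Itgam 0.320 CPM (iKO 3).

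Against this background 2 of the 9 genes rose in the libraries labelled iKO, Cgn and Marveld3, and none fell. Over all tested genes 0.229% were called higher and 0.339% were called in either direction, by edgeR's quasi-likelihood test with Benjamini-Hochberg adjustment at 0.05. Groups did not overlap for 5 of the 9 genes (Cgn, Marveld3, Cldn4 and Tjp1 higher, Marveld2 lower), against 21.9% of all tested genes. An unadjusted p under 0.05 was reached by 4 of the 9, against 15.0% of all. DESeq2 called 3 of the 9 (Cgn, Marveld3, Cldn4), against 6.12% of all genes. The 9 genes were chosen with earlier results of these data known, so standing above these shares is not a separate result. The median log2 fold change of the 9 was 0.26, beside 0.01 over all tested genes, with 7 positive and 2 negative values. Over all tested genes 51.2% of values were positive. The median of the 9 is the value of Cgnl1 (SE 1.06). Over 16 alternative fits Cgnl1 ran from -0.69 to 2.08 and kept its direction in 11. Ocln, at 0.05, also kept its direction in 11 of 16. The median and the count of positive values therefore do not show a shift of the set.

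The upstream windows of Cgn and Cldn4 are shown because these genes stood higher together, and that of Cldn1 because it is the other abundant claudin and did not. Each runs over the 250 bases before the RefSeq start of the gene (GRCm38.p6), 5′ to 3′ on the strand of the gene, at chr3:94786483-94786732 for Cgn, chr5:134946935-134947184 for Cldn4 and chr16:26371840-26372089 for Cldn1, all on the minus strand. Capitals mark matches on either strand to 3 motifs: the GATA motif, counted as the letters GATA after A or T and before A or G, the Grainyhead-like motif AACCNGNT, and the E-box CAGGTG that Snail and Zeb repressors are known to bind.
Cgn: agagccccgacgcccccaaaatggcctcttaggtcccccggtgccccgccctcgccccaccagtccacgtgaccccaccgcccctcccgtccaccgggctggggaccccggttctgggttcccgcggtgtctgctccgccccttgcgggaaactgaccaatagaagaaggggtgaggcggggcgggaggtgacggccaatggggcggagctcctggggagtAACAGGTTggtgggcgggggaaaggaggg
Cldn4: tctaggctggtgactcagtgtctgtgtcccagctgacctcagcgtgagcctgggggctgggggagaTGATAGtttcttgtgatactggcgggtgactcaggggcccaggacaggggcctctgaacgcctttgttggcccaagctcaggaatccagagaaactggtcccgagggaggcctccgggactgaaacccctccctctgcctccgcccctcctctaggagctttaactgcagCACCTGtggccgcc
Cldn1: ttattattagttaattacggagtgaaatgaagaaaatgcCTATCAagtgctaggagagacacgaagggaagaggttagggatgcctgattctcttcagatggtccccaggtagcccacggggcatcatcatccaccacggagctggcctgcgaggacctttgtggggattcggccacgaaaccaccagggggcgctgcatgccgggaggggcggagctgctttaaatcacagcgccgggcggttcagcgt
The Cgn window held 1 match to the Grainyhead-like motif, which begins 29 bases before the start and which 7.61% of 32851 windows of that length also hold. The Cldn4 window held a GATA match (184 bases before the start) and an E-box (14 bases before), found in 26.5% and 17.2% of windows. Cldn1 held a GATA match as well, 211 bases before its start. Windows were found for 8 of the 9 genes, Marveld3 being the exception; Cgnl1 and Marveld2 held no match to any of the 3, Tjp1 a GATA match and F11r an E-box, and 1 of the 2 Ocln windows held a Grainyhead-like match and 2 E-boxes. A match is a run of letters and says nothing of whether a factor binds there.

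The mRNA of cingulin, the linker between ZO-1 and the actomyosin belt, was about 2 times as abundant in the libraries labelled iKO. Cgn (chromosome 3, 94760069 to 94786492, minus strand, mm10) had 27.2, 27.7 and 32.6 CPM in WT 2, WT 3 and WT 4, and 56.6, 65.3 and 55.0 CPM in iKO 3, iKO 4 and iKO 33. The highest library labelled WT lay well below the lowest labelled iKO, and the libraries within each group differed by no more than 1.20-fold. Group means were 29.1 ± 2.99 and 58.9 ± 5.57 CPM (SD, n = 3), and Cgn rose by 1.02 on the log2 scale (SE 0.13, edgeR adjusted p = 0.0361; DESeq2 adjusted p = 1.75e-08). In the authors' deposited table Cgn has a log2 fold change of 0.95 and an adjusted p of 4.62e-08, from the same libraries. Log2 fold changes there are not on the same measure as those fitted here.

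Marveld3 encodes the smallest of the MARVEL trio, a protein known to restrain MEKK1 and JNK signalling at junctions. The gene had the largest log2 fold change of the 9. Marveld3 (chromosome 8, 109947914 to 109962203, minus strand, mm10) was a low-count gene, with 57, 210 and 110 reads in WT 2, WT 3 and WT 4 and 282, 324 and 723 reads in iKO 3, iKO 4 and iKO 33. As CPM these were 2.63, 2.66 and 3.13 against 9.02, 7.20 and 8.51, and the groups stood far apart. Means were 2.80 ± 0.280 and 8.24 ± 0.938 CPM (SD, n = 3), a rise of 1.55 on the log2 scale (SE 0.20, edgeR adjusted p = 0.0406; DESeq2 adjusted p = 3.58e-09). The authors' deposited table, from the same libraries, gives Marveld3 a log2 fold change of 1.38 and an adjusted p of 9.13e-11.

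Both edgeR calls needed all 6 libraries. Dropping any single library ended both: the edgeR adjusted p of Cgn then lay between 0.0818 (WT 3 dropped) and 0.226 (WT 2 dropped), and that of Marveld3 between the same values for the same libraries. The size of either difference moved little: Cgn ranged from 0.94 to 1.09 and Marveld3 from 1.49 to 1.64 on the log2 scale over these 6 fits. The number of calls over all genes also dropped, from 43 to between 7 and 31. With the library totals alone as scaling, Cgn had an adjusted p of 0.0544 and Marveld3 of 0.0489.

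**Figure D1:**
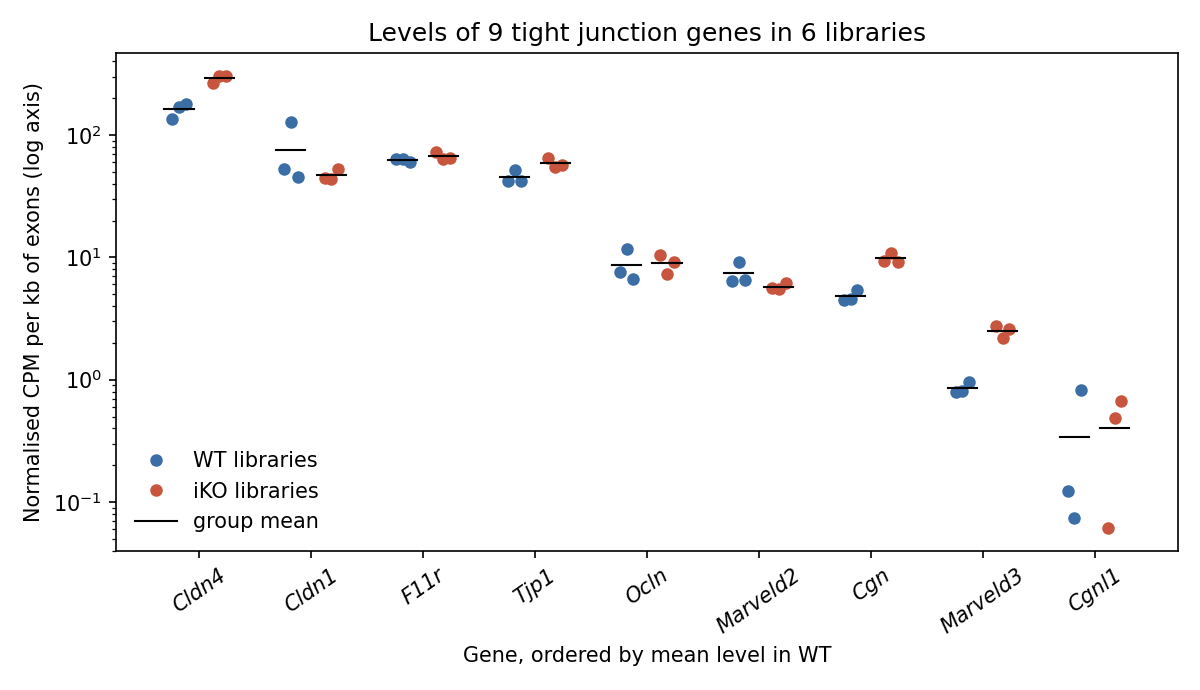
Level of each of the 9 genes in each library, as normalised CPM per kb of exons on a log axis, with WT libraries in blue, iKO libraries in red and a bar at each group mean. Cgn and Marveld3 show 2 separate clusters of points, Cldn1 has 1 high WT library, and Cgnl1 spreads over more than 10-fold within each group.

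Of the claudins, Cldn4, a claudin known to be abundant in differentiating keratinocytes, was higher in each library labelled iKO. Cldn4 (chromosome 5, 134945119 to 134946934, minus strand, mm10) stood at 245.9, 309 and 326 CPM in WT 2, WT 3 and WT 4 and at 480.5, 549.6 and 555 CPM in iKO 3, iKO 4 and iKO 33. The groups did not overlap, and means were 293 ± 42.0 and 528 ± 41.6 CPM (SD, n = 3). The log2 fold change of 0.85 (SE 0.14) missed the threshold by edgeR's test, at an adjusted p of 0.0659, whereas DESeq2 called it at 1.76e-05. The authors' deposited table, from the same libraries, gives Cldn4 a log2 fold change of 0.78 and an adjusted p of 7.70e-05.

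Cldn1, the claudin on which the skin barrier depends, did not show this. Cldn1 (chromosome 16, 26356642 to 26371841, minus strand, mm10) stood at 253, 619.8 and 221 CPM in WT 2, WT 3 and WT 4 and at 215, 209.6 and 255 CPM in iKO 3, iKO 4 and iKO 33. WT 3 was alone far above the other 5, which lay between 209.6 and 255 CPM and overlapped. The log2 fold change was -0.69 (95% interval -1.59 to 0.22, edgeR adjusted p = 0.453), and without WT 3 it was -0.06.

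The ratio of Cldn4 to Cldn1 reads within a library does not depend on how libraries are scaled. It was 0.972, 0.498 and 1.48 in WT 2, WT 3 and WT 4, and 2.23, 2.62 and 2.17 in iKO 3, iKO 4 and iKO 33. The groups did not overlap, and the exact two-sided permutation test gave p = 0.1, the smallest that 3 against 3 libraries allow. Per kb of exons, Cldn4 made up 68.1%, 54.5% and 73.8% of the 5 tested claudins (Cldn1, Cldn4, Cldn7, Cldn12 and Cldn23, the row named Cldn25 apart) in WT 2, WT 3 and WT 4, and 82.1%, 83.2% and 81.2% in iKO 3, iKO 4 and iKO 33. Cldn1 made up 26.3%, 41.0% and 18.8% against 13.8%, 11.9% and 14.0%.

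**Figure D2:**
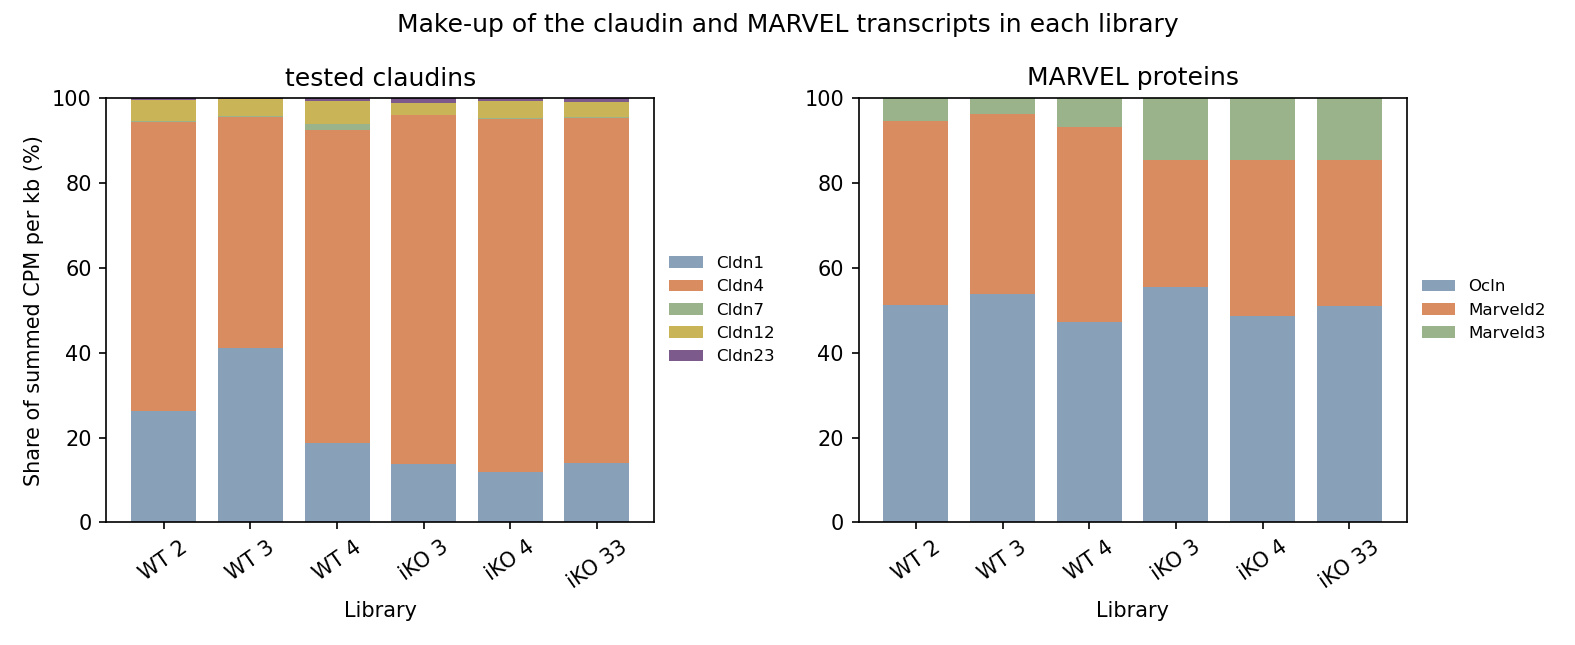
Stacked shares, in percent of summed CPM per kb of exons, of the 5 tested claudins (left) and the 3 MARVEL genes (right) in each of the 6 libraries. Cldn4 fills 54.5% to 73.8% of the claudin bar in WT libraries and 81.2% to 83.2% in iKO libraries, and Marveld3 3.72% to 6.72% against 14.5% to 14.6% of the MARVEL bar.

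The other MARVEL genes differed from Marveld3. Tricellulin seals tricellular contacts, and its gene Marveld2 (chromosome 13, 100595957 to 100616971, minus strand, mm10) stood at 21.6, 31.3 and 22.1 CPM in WT 2, WT 3 and WT 4 and at 19.1, 18.7 and 20.7 CPM in iKO 3, iKO 4 and iKO 33. The groups lay side by side without overlap, WT 3 being the highest. The log2 fold change was -0.36 (95% interval -0.77 to 0.05, edgeR adjusted p = 0.392), and -0.16 without WT 3. In the authors' deposited table Marveld2 has a log2 fold change of -0.32 with no p-value.

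Ocln, the gene of the first transmembrane protein described at tight junctions, lies on the same chromosome and strand, 43.2 kb from Marveld2 (chromosome 13, 100496507 to 100552718, mm10). It stood at 31.9, 49.5 and 28.2 CPM in WT 2, WT 3 and WT 4 and at 44.0, 30.9 and 38.4 CPM in iKO 3, iKO 4 and iKO 33. The groups overlapped fully, with WT 3 again the highest of its group. The log2 fold change was 0.05 (95% interval -0.52 to 0.61, edgeR adjusted p = 0.951) and 0.33 without WT 3.

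Within the MARVEL trio the make-up of the transcripts shifted. Marveld3 accounted for 5.43%, 3.72% and 6.72% of their summed CPM per kb in WT 2, WT 3 and WT 4, and for 14.6%, 14.6% and 14.5% in iKO 3, iKO 4 and iKO 33. Marveld2 accounted for 43.3%, 42.4% and 46.1% against 30.0%, 36.8% and 34.4%, and the groups overlapped for neither gene (exact two-sided permutation p = 0.1 for each). For Ocln the shares were 47.2% to 53.8% and 48.6% to 55.4%, which overlapped (exact permutation p = 0.8). There were 0.122, 0.0851 and 0.142 Marveld3 reads for each Marveld2 read in WT 2, WT 3 and WT 4, and 0.472, 0.384 and 0.410 in iKO 3, iKO 4 and iKO 33. This ratio had to separate the groups, because the CPM of Marveld3 and of Marveld2 already did so in opposite directions. The shares draw on the same values and are not a separate result.

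The gene of paracingulin, the paralog of cingulin that is also found at adherens junctions, behaved unlike Cgn. Cgnl1 (chromosome 9, 71626509 to 71771602, minus strand, mm10) had 21, 46 and 228 reads in WT 2, WT 3 and WT 4 and 15, 172 and 445 reads in iKO 3, iKO 4 and iKO 33, or 0.968, 0.583 and 6.48 CPM against 0.480, 3.82 and 5.24 CPM. WT 4, iKO 4 and iKO 33 were high and the other 3 libraries low, across the groups. The spread was 11.1-fold among libraries labelled WT and 10.9-fold among those labelled iKO. The log2 fold change was 0.26 (95% interval -2.25 to 2.78, edgeR adjusted p = 0.938), and it ran from -0.30 without iKO 33 to 2.08 without WT 4. Cldn7, a claudin of simple and stratified epithelia, was also high in WT 4, but less clearly in iKO 4 and iKO 33. It stood at 0.922, 0.975 and 6.43 CPM in WT 2, WT 3 and WT 4. In iKO 3, iKO 4 and iKO 33 it stood at 0.224, 1.20 and 2.12 CPM, with iKO 4 close to WT 3. Epcam, an adhesion protein gene known to partner Cldn7, was high in the same libraries as Cgnl1. Its values were 81.6, 59.3 and 175 CPM against 57.3, 254 and 156 CPM. The 2 genes were set beside Cgnl1 after their values were seen.

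ZO-1 is the scaffold on which claudin strands are assembled. Its gene Tjp1 (chromosome 7, 65296165 to 65527781, minus strand, mm10) stood at 327, 402 and 329.9 CPM in WT 2, WT 3 and WT 4 and at 502, 431 and 445 CPM in iKO 3, iKO 4 and iKO 33. The groups did not overlap, though WT 3 came close to iKO 4. Means were 353 ± 42.5 and 459 ± 37.6 CPM (SD, n = 3), with a log2 fold change of 0.38 (SE 0.13) that did not pass in edgeR (adjusted p = 0.243) or in DESeq2 (adjusted p = 0.121). Reads of Cgn for each read of Tjp1 numbered 0.0830, 0.0689 and 0.0988 in WT 2, WT 3 and WT 4 and 0.113, 0.151 and 0.124 in iKO 3, iKO 4 and iKO 33, without overlap (exact two-sided permutation p = 0.1).

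JAM-A is an immunoglobulin-type adhesion molecule that helps recruit the polarity complex to new contacts. F11r (chromosome 1, 171437535 to 171464603, plus strand, mm10) stood at 169.7, 170.3 and 159 CPM in WT 2, WT 3 and WT 4 and at 193, 169.0 and 173 CPM in iKO 3, iKO 4 and iKO 33. It was the least variable of the 9, and the groups overlapped. Its log2 fold change was 0.10, with a 95% interval of -0.14 to 0.34 (edgeR adjusted p = 0.707).

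**Figure D3:**
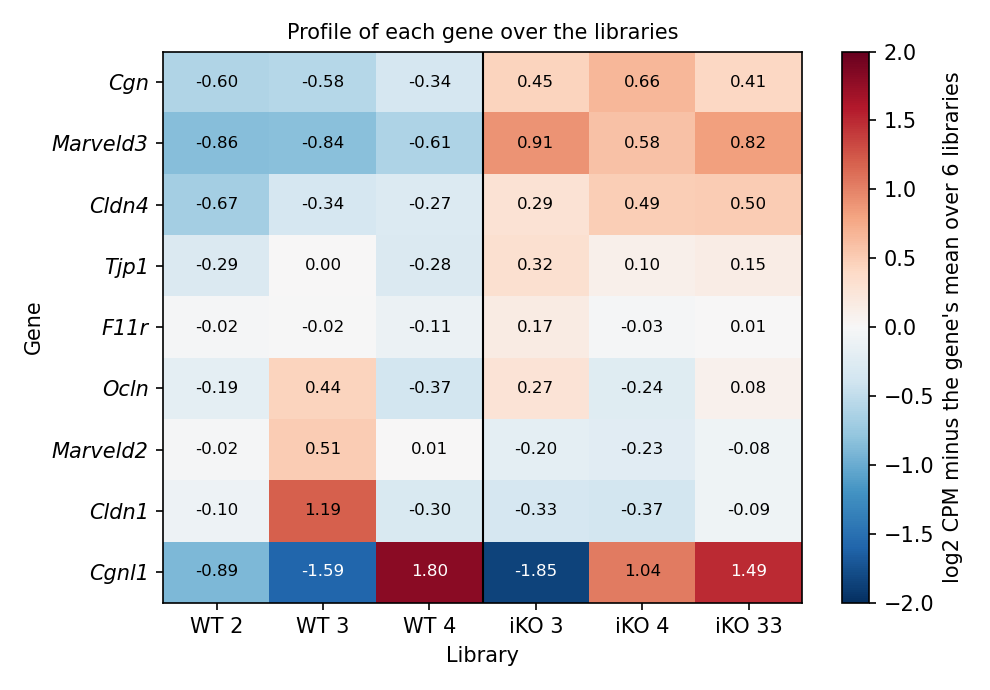
Heat map of log2 CPM for each of the 9 genes (rows) in each library (columns), minus the mean of the gene over the 6 libraries, with red above and blue below that mean. Cgn, Marveld3 and Cldn4 are below 0 in the 3 WT libraries and above 0 in the 3 iKO libraries, Cldn1 reaches 1.19 in WT 3, and Cgnl1 runs from -1.85 to 1.80 across both groups.

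Per kb of exons, Cldn4 was the most abundant of the 9 in both groups, at 162 ± 23.1 and 291.0 ± 22.9 CPM per kb (SD, n = 3). In the libraries labelled WT the next were Cldn1 (75.3 ± 45.8), F11r (62.5 ± 2.31) and Tjp1 (45.2 ± 5.44 CPM per kb), where the range of Cldn1 overlapped those of both F11r and Tjp1. Cldn1 was above F11r in WT 3 alone. Below them came Ocln (8.65 ± 2.70), Marveld2 (7.39 ± 1.61) and Cgn (4.84 ± 0.496 CPM per kb), with Ocln and Marveld2 overlapping. Marveld3 (0.854 ± 0.0852) and Cgnl1 (0.341 ± 0.421 CPM per kb) were the lowest, and WT 4 made them overlap too. In the libraries labelled iKO, F11r (67.0 ± 4.82) and Tjp1 (58.8 ± 4.82 CPM per kb) overlapped and stood above Cldn1 (46.8 ± 5.14). Cgn (9.79 ± 0.924 CPM per kb) there stood level with Ocln (8.95 ± 1.56), their ranges overlapping, and above Marveld2 (5.77 ± 0.314). Marveld3 was at 2.51 ± 0.286 and Cgnl1 at 0.405 ± 0.311 CPM per kb. GENCODE gives cingulin 1192 residues and paracingulin 1297 in their longest coding models, and Ocln, Marveld2 and Marveld3 521, 555 and 385.

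Among other parts of the tight junction no gene passed in edgeR with the 6 libraries and group as the only term. Of 84 symbols in 5 lists (claudins, other membrane proteins, plaque scaffolds, polarity proteins, and signalling partners of the plaque), 77 were in the table and 52 were tested. Of these 52, 38 had positive and 14 negative log2 fold changes, a share of 73.1% positive beside 51.2% over all tested genes. Their median was 0.16. Unadjusted p-values under 0.05 were found for 11 (8 higher, 3 lower), or 21.2% beside 15.0% of all tested genes, and 5 were called by DESeq2, or 9.62% beside 6.12%.

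Only 4 of 23 other claudin rows had enough reads to test, and 6 had no read in any library (Cldn2, Cldn5, Cldn10, Cldn13, Cldn14 and Cldn26); no untested claudin passed 0.370 CPM. Cldn23, a claudin known from differentiated epithelia, stood at 1.80, 1.75 and 3.13 CPM in WT 2, WT 3 and WT 4 and at 7.03, 5.42 and 7.13 CPM in iKO 3, iKO 4 and iKO 33. Its groups did not overlap, and its log2 fold change was 1.55 (SE 0.31), with an adjusted p of 0.101 from edgeR and of 0.000236 from DESeq2. The row named Cldn25 had a value of 0.66 (SE 0.16, edgeR adjusted p = 0.156, DESeq2 adjusted p = 0.0141), and that symbol is an older name of both Cldnd1 and Cldn25-ps, so its identity is uncertain. Cldn7 had a log2 fold change of -1.20 (SE 0.98), which was 0.34 without WT 4.

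Other membrane proteins and scaffolds were mixed. The polarity protein gene Crb3 had a log2 fold change of 0.37 (SE 0.12, edgeR adjusted p = 0.221), the MARVEL-domain gene Marveld1 of -0.39 (SE 0.13, adjusted p = 0.234), and the JAM gene Jam2 of 2.35 (SE 0.94, adjusted p = 0.310), resting largely on iKO 4 at 13.6 CPM. The Jam2 value was 1.14 without iKO 4 and 3.40 without WT 4. Among 16 tested scaffold genes, Tjap1, which encodes a tight junction-associated protein, averaged 49.9 ± 4.92 CPM under the WT label and 28.3 ± 5.09 CPM under the iKO label (SD, n = 3). This was a log2 difference of -0.82 (SE 0.16, edgeR adjusted p = 0.101, DESeq2 adjusted p = 0.000938). The angiomotin family gene Amotl2 stood at 133 ± 13.4 and 208 ± 24.3 CPM, a value of 0.65 (SE 0.13, edgeR adjusted p = 0.109, DESeq2 adjusted p = 0.00192), and the afadin gene Mllt4 had 0.38 (SE 0.19). Tjp3 was below 1 CPM in every library.

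In the polarity list, Pard6b of the Par complex had a log2 fold change of 0.54 (SE 0.21), Cdc42 of 0.18 (SE 0.10) and the Lgl gene Llgl1 of 0.25 (SE 0.13). Among the signalling partners of the plaque, Arhgef11 had the smallest p, at 34.9 ± 2.20 and 45.5 ± 0.573 CPM (SD, n = 3), with a log2 fold change of 0.38 (SE 0.10, edgeR adjusted p = 0.176, DESeq2 adjusted p = 0.0292). Arhgap17 had 0.42 (SE 0.14) and Racgap1, whose protein binds cingulin-family linkers at junctions, -0.33 (SE 0.14). The guanine nucleotide exchange factor genes Arhgef2 and Arhgef18, known partners of cingulin, stood at 0.03 (SE 0.29) and -0.03 (SE 0.16), and the ZONAB gene, under its older symbol Csda, at -0.21 (SE 0.17).

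**Figure D4:**
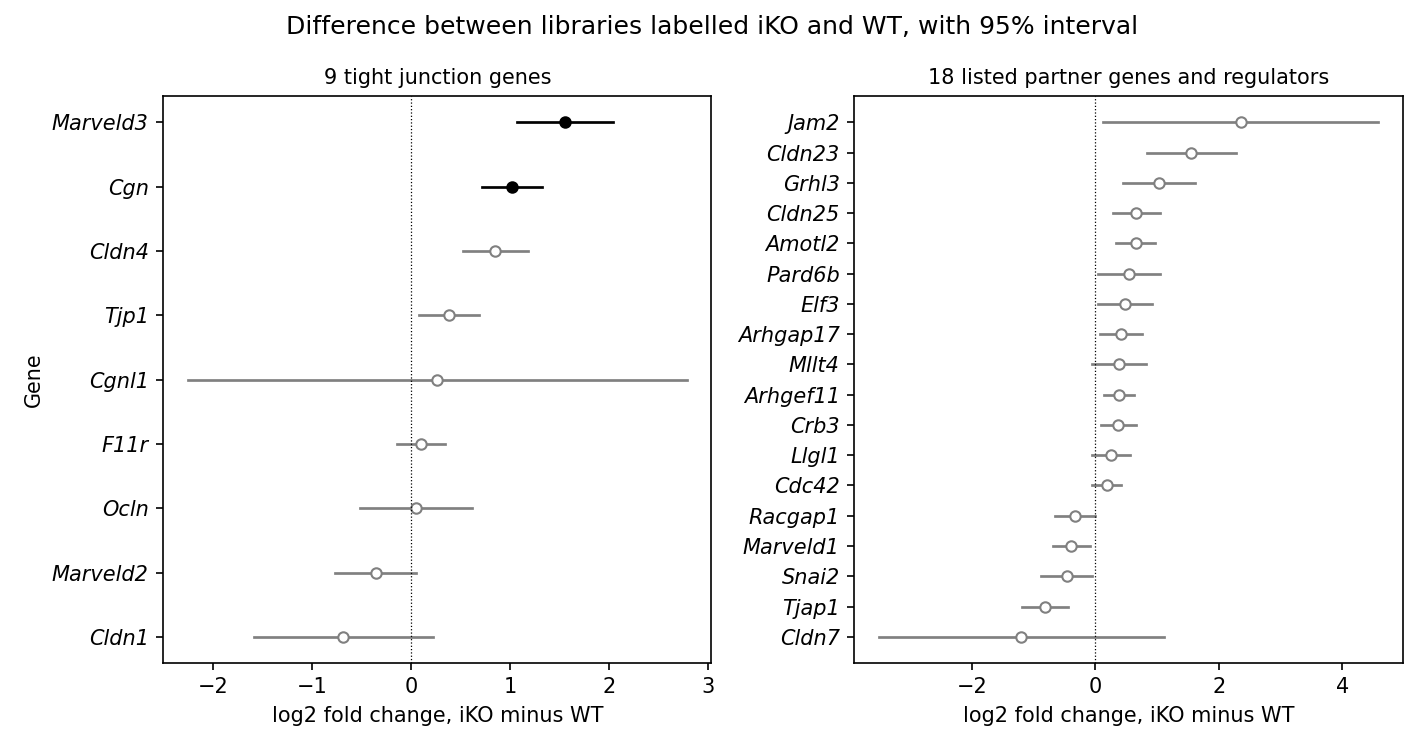
Log2 fold change, iKO minus WT, with its 95% interval from edgeR for the 9 genes (left) and 18 listed partners and regulators (right); filled black points passed an adjusted p of 0.05 and open grey points did not. Marveld3 (1.55) and Cgn (1.02) are the filled points, and Cgnl1 has the widest interval of the left panel.

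Of 16 epithelial transcription factor genes, 11 were tested, 6 with positive and 5 with negative values, and none passed in edgeR. The unadjusted p was under 0.05 for 3, or 27.3% beside 15.0% of all tested genes, and 1 was called by DESeq2, or 9.09% beside 6.12%. That gene was Grhl3, a Grainyhead-like factor of the outer epidermis, at 40.1, 38.7 and 29.4 CPM in WT 2, WT 3 and WT 4 and 103, 58.1 and 60.9 CPM in iKO 3, iKO 4 and iKO 33 (log2 fold change 1.03, SE 0.25, edgeR adjusted p = 0.152, DESeq2 adjusted p = 0.00506). Its relative Grhl2, known to bind near Cldn4, had -0.03 (SE 0.15). Snai2, a repressor of epithelial genes, had -0.46 (SE 0.18), and Elf3, an epithelial activator, 0.48 (SE 0.19). Zeb1, Zeb2, Snai1 and Twist1 reached no more than 0.192 CPM in any library (Snai1 in iKO 3).

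Markers of cell state moved with the groups only in part. Of 11 suprabasal markers 3 had positive and 8 negative values: Tgm1 ranged from 24.5 to 32.0 CPM across WT and from 66.4 to 147 CPM across iKO libraries, while Krt10 stood at 12.3 to 23.6 and 4.88 to 9.89 CPM. The summed level of that list ran from 631 to 1304 CPM and from 482 to 1704 CPM. Of 5 simple epithelial markers 4 had positive values, with sums of 84.6 to 257 CPM and 235 to 849.8 CPM. Krt8 stood at 26.3, 10.7 and 47.5 CPM in WT 2, WT 3 and WT 4 and at 129, 491 and 105 CPM in iKO 3, iKO 4 and iKO 33, and Krt18 was likewise higher in every library labelled iKO. Krt7 went the other way, with means of 21.75 CPM in WT and 10.9 CPM in iKO libraries. The groups overlapped for Krt7, Krt19 and Epcam. Basal markers were split, 3 positive and 4 negative, with sums of 31283 to 43860 and 32793 to 48085 CPM that are mostly Krt5 and Krt14. Trp63 of that list, the gene of the p63 factor that maintains basal keratinocytes, stood at 331, 307 and 323 CPM in WT 2, WT 3 and WT 4 and at 203, 190.6 and 205 CPM in iKO 3, iKO 4 and iKO 33. Its groups did not overlap, and its log2 fold change was -0.68 (SE 0.10), with an adjusted p of 0.0529 from edgeR and of 9.65e-09 from DESeq2. Melanocyte marker sums ran from 6.08 to 11.9 and from 5.69 to 8.45 CPM, with Dct at 0 in all libraries, and endothelial sums from 10.1 to 19.9 and from 7.55 to 9.31 CPM. Fibroblast sums reached at most 3.38 CPM and leukocyte sums at most 0.467 CPM. In such bulk samples more cells of a state and more RNA per cell cannot be told apart, and the part of these markers, Trp63 included, in the values of Cgn, Marveld3 and Cldn4 was not tested.

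The genes whose profile over the 6 libraries lay closest to Cgn and Marveld3 were found by the mean absolute difference of log2 CPM after each gene was centred on its own mean, among genes with a mean log2 CPM of at least 3. For Cgn these were Mboat2 (0.115), Uevld (0.118), Slc25a30 (0.123) and Map4k2 (0.132), beside a median of 0.52 over 8673 genes. Cldn4, at 0.133, lay nearly as close, followed among the 9 by Marveld3 (0.288) and Tjp1 (0.316), and Cgnl1 was the farthest at 1.20. For Marveld3 the closest genes were Sowahb (0.118), Inhbb (0.124), Metrnl (0.180) and Ivd (0.189), beside a median of 0.78, and Cgn (0.288) and Cldn4 (0.342) were the closest of the 9. All 8 of these genes were higher in every library labelled iKO than in any labelled WT. That follows from choosing them for likeness to Cgn and Marveld3, which already had this pattern, and is not a separate result. Over all tested genes, 1335 of 12672 had it. The measure describes these 6 libraries only.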

How the data were processed

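Per the submitters' processing notes, TopHat2, HTSeq, DESeq2 and DESeq were used on build mm10; versions, annotation and strand setting were not given in the sources used here. Deposited by the authors were whole-number read counts per gene symbol, not normalised, whose 5 HTSeq summary rows (27.4% to 35.5% of all counts per library) entered neither library sizes nor tests. Per the file headers, a second deposited table holds for each gene a mean signal after scaling, a log2 ratio and its SE, a test score, and p-values. A positive log2 value there means more reads under the iKO label. The sizes there are not on the same measure as those fitted here. Cgnl1, for example, has 0.05 (SE 0.24) there and 0.25 (SE 0.96) in the DESeq2 fit made here. No pair of libraries of a group agreed within sampling noise (smallest chi-square per degree of freedom 48.6).

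Counts were fitted in R 4.3.3 with edgeR 4.0.16 on all genes: filterByExpr with a minimum count of 10, TMM factors, and a two-sided glmQLFTest after a robust glmQLFit, group as the only term, Benjamini-Hochberg adjustment at 0.05. SE is the absolute log2 fold change over the square root of F, and 95% intervals use the t distribution with the degrees of freedom of the test. Log2 CPM uses a prior count of 2. The script was checked on simulated data. Alternatives were other scaling factors and filters, DESeq2 1.42.0, limma-voom (limma 3.58.1), no robust estimation, a replicate block and leaving out each library.

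Gene positions, exon lengths and coding lengths come from the GENCODE mouse annotation (mm10), and upstream windows from RefSeq (GRCm38.p6). No exonic base of the 9 genes is shared with another annotated gene. Genes, lists and tests were chosen with earlier results of these data known. Named beyond the 9 were the 3 genes of each tight junction or transcription factor list with the smallest p, and the 4 closest in profile to Cgn and to Marveld3; other names were chosen after their values were seen. Some items of the lists are not reported here.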

Additional observations from a re-analysis of the deposited data

How the results depend on the processing

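Cgn, Marveld3, Cldn4, Tjp1, F11r, Marveld2 and Cldn1 kept the direction of their log2 fold change under all 16 alternatives. The number of the 9 genes called was 2 with all libraries, 1 with library totals only as scaling (Marveld3), and 0 in each of the 6 fits with 1 library left out, whose ranges over all genes were 7 to 31 calls against 43. Over all genes 76 were called without a count filter and 775 by DESeq2. The libraries numbered 3 and 4 occur in both groups, and their deviations from the group means correlated across genes at 0.297 and 0.661; with only 2 such pairs and no shared source in the labels, the numbers were not taken as pairs. With a replicate block on these 4 libraries 0 of the 9 genes and 103 of all genes were called, and in the same 4 libraries without a block 0 and 4. Cgnl1 had log2 fold changes of -0.57 with the replicate block and -0.69 without it in those 4 libraries, and from -0.30 to 2.08 with 1 library left out. For Ocln the values were -0.02 and -0.06, and from -0.12 to 0.33. Cldn7 was at -2.31 with the replicate block and -2.34 without it in those 4 libraries, and from -1.93 without iKO 33 to 0.34 without WT 4. Jam2 passed with the replicate block (2.28, edgeR adjusted p = 0.0483) and not in the same 4 libraries without a block (2.43, adjusted p = 0.689). Why these values changed was not tested beyond the smaller number of libraries. The fewest reads in a library were 15 for Cgnl1 and 57 for Marveld3.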
